A study of Rattus norvegicus with 46 samples.

Results

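Transcripts of 8 genes widely used as markers of cellular senescence were followed in rat skin after radiation: Cdkn2a, Cdkn2b, Cdkn2c, Gdf15, Igfbp3, Igfbp5, Lmnb1 and Glb1. The members were the 8 symbols named for this purpose, found by the gene symbols in the array annotation. Each had exactly 1 feature, so the 8 are 8 of 15037 named genes and 8 of 23188 features tested. The samples were 46 Clariom S arrays, each with RNA of a 5-mm punch of abdominal skin, from 9 Sprague-Dawley rats biopsied repeatedly. The 6 baseline arrays came from day -10, before any injection or radiation. The later biopsies, on days -4, 1, 3, 7 and 14, fell into 3 arms: irradiated with RTA-408 (3 arrays a day), irradiated with vehicle (3 a day) and sham-irradiated with vehicle, called unirradiated here (2 a day). Radiation was 40 Gy of 6-MeV electrons in 4 fractions of 10 Gy, and DMSO vehicle or RTA-408, a small-molecule activator of NRF2, was injected on days -7, -5, -3 and 0. Day -4 therefore lay within the radiation course, and the 3 later arms had all received DMSO or drug injections, which baseline skin had not.  In the unirradiated arm, replicate 2 was a different rat on days 7 and 14 than on earlier days.

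Senescence is a lasting exit from the cell cycle that follows DNA damage, telomere loss or oncogene activity, and no single transcript defines it. The INK4 proteins, including those encoded by Cdkn2a, Cdkn2b and Cdkn2c, bind CDK4 and CDK6 and keep RB able to hold cells before DNA replication. Senescent cells also lose lamin B1 from the nuclear lamina, accumulate lysosomal beta-galactosidase, and secrete a mixture of cytokines, proteases and growth-factor binding proteins. In irradiated skin the follicle, epidermis, dermis and incoming leukocytes all contribute RNA, and several of these markers also follow cell division or leukocyte number.

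Values are deposited log2 signals, and a difference is one of mean log2 signals of 2 groups, with its SE from a linear model over all arrays (limma) and a p adjusted by Benjamini-Hochberg over the 23188 features. An adjusted p under 0.05 was called a rise or fall. Array medians lay between 6.82 and 6.93, and replicate arrays correlated across features with r from 0.927 to 0.990. Medians of the 1153 negative-control features lay between 5.78 and 6.52 on the 46 arrays, and a signal under its own array's median was taken as no measurable level. All 3 measured keratinocyte markers and all 6 fibroblast markers lay above it on every array, while the mean of 5 skeletal muscle markers ran from 6.42 to 19.19, so biopsies differed in how much muscle they held. Spike-in controls parted the arrays into 3 sets of 18, 10 and 18, which the labels do not name. All baseline arrays were in the first set, and all irradiated and unirradiated arrays of days 3 to 14 were in the other sets. Comparisons with baseline from day 3 on thus also compare spike-in sets. Every irradiated group, on each day, held 1 array of the second set, which baseline and unirradiated skin did not. All comparisons of irradiated with baseline or unirradiated skin therefore also compare sets in part. For the members called against baseline from day 3 on, the values with the set as a block are given beside them. In whole skin, fewer cells of a type and less RNA per cell cannot be told apart. The p-values treat biopsies of 1 rat on different days as separate samples.

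Lmnb1 and Igfbp3 fell and Glb1 rose in irradiated skin, each on a single day when the comparison was with unirradiated skin. Against unirradiated vehicle skin of the same day, Lmnb1 was lower by 3.12 on day -4, Igfbp3 was lower by 1.63 on day 1 and Glb1 was higher by 1.83 on day 14, and no member passed on days 3 and 7. The counts of 1, 1, 0, 0 and 1 of 8 members stand beside 7.42%, 2.10%, 1.30%, 4.02% and 6.96% of all features called on those days by limma. At an unadjusted p under 0.05 the counts were 3, 3, 3, 3 and 1. Arrays of both groups did not overlap for 3, 4, 5, 4 and 2 members, beside 41.9%, 34.3%, 28.0%, 37.0% and 25.1% of all features. Against baseline, irradiated vehicle skin had 1, 4, 2, 4 and 1 members called on days -4, 1, 3, 7 and 14 (10.7%, 9.72%, 8.54%, 14.0% and 15.4% of all features). Irradiated RTA-408 skin had 1, 3, 3, 2 and 2 (5.79%, 11.0%, 9.69%, 15.8% and 10.2% of all features). These comparisons share the baseline arrays, and the radiation and drug comparisons share the irradiated vehicle arrays. Unirradiated skin had 0 members called against baseline on each of the 5 days (0.0173%, 0.315%, 0%, 2.71% and 0% of all features), with 2, 0, 0, 1 and 0 at an unadjusted p under 0.05. Cdkn2b and Igfbp5 were called in none of the 25 comparisons.

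**Figure D1:**
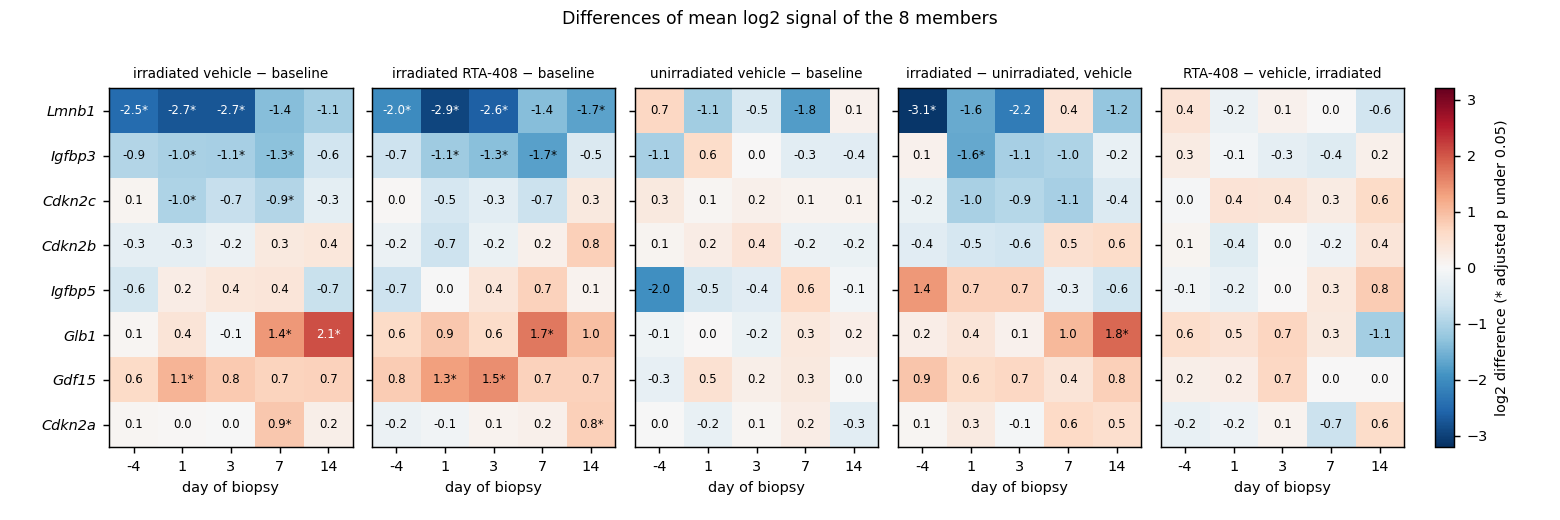
Differences of mean log2 signal for the 8 genes (rows) on the 5 biopsy days (columns) in 5 comparisons (panels), red for higher and blue for lower in the group named first, with an asterisk at an adjusted p under 0.05. Lmnb1 is blue in both irradiated arms against baseline, Glb1 is red on days 7 and 14, and the drug panel holds no asterisk.

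With the spike-in set as a block, 7 of the 23 calls against baseline were kept. Only 1 of the 14 calls from day 3 on was among them, Igfbp3 in RTA-408 skin on day 7. Baseline shared no set with the biopsies from day 3 on, so the block leaves those differences less precise. Some of these calls were lost though the difference itself did not shrink. All 3 calls of irradiated against unirradiated skin were kept, with differences of -2.80 for Lmnb1, -1.56 for Igfbp3 and 2.13 for Glb1.

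Lmnb1 (probe set TC1800000555.rn.2) encodes lamin B1, a filament protein of the inner nuclear membrane whose transcript falls in senescent cells and is high in dividing ones. In rat, its promoter window (RefSeq, GRCr8, chr18:52373689-52373938, plus strand, the 250 bases before the transcript start) is shown because Lmnb1 had the largest differences of the 8. The capitals mark, in order, a TTTGAA match and a CACGTG match.

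Lmnb1: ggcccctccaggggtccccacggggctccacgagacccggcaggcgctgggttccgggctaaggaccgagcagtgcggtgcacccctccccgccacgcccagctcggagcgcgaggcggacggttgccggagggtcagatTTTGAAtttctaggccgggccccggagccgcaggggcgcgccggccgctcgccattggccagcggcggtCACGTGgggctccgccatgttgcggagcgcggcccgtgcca

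TTTGAA is the core of the cell cycle genes homology region, through which cell-cycle genes are repressed in resting cells. It covers bases 110 to 105 before the start, and a match on either strand occurred in 16.2% of 33469 windows of the same length. CACGTG, an E-box, covers bases 41 to 36 and occurred in 5.59%. The window has 74.8% G and C and 31 CpG sites. Other motifs searched on both strands were TGACGTCA (1.59% of windows), TGAGTCA (4.05%), TATAAA or TATATA (16.1%), E2F sites (TTTCCCGC, TTTCGCGC, TTTGCCGC or TTTGGCGC, 1.73%) and the p53 half-site (6.64%), and these letters do not occur in this window. A match is a description of letters and not a site.

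At baseline the 6 arrays read 13.24, 13.17, 12.91, 11.34, 12.57 and 13.02. On day -4 Lmnb1 read 13.42 and 13.31 in unirradiated skin, 8.93, 11.56 and 10.26 in irradiated vehicle skin, and 12.39, 10.70 and 8.995 with RTA-408. Every irradiated array of both arms was below both unirradiated ones, and the 3 arrays of each irradiated arm were far apart. The lowest array of each irradiated arm, vehicle replicate 1 and RTA-408 replicate 3, was its only one of the second spike-in set. A fit within the first set therefore compares the same arrays as leaving out that replicate. The fall against unirradiated skin was -3.12 ± 0.70 (SE; limma adjusted p = 0.00655) and against baseline -2.46 ± 0.54 (adjusted p = 0.00285). With RTA-408 the fall against baseline was -2.01 ± 0.54 (adjusted p = 0.0230), and it was -1.16 within the first spike-in set (adjusted p = 0.322). The vehicle call against baseline was lost within the first set (0.0542) and without replicate 1 (0.0797), and the RTA-408 call with the set as a block (0.0749), when only those groups were fitted (0.136) and without baseline replicate 1 or RTA-408 replicate 2 or 3 (0.0523, 0.0621 and 0.402). Without irradiated vehicle replicate 1, the fall against unirradiated skin was not called (adjusted p = 0.0548), and nor was it without either unirradiated array (0.0856 and 0.0787).

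On day 1 the 3 irradiated vehicle arrays read 10.04, 9.74 and 10.10 and the 3 RTA-408 arrays 9.25, 9.60 and 10.45. All 6 lay below every baseline array. The unirradiated arrays of that day read 11.31 and 11.86, the first below all 6 baseline arrays and the second below 5 of them. Lmnb1 fell against baseline by -2.75 ± 0.54 with vehicle (adjusted p = 0.000951) and by -2.94 ± 0.54 with RTA-408 (adjusted p = 0.000363). Both calls held under every alternative setting and without any single array (highest adjusted p 0.0115 and 0.00806). The difference from unirradiated skin was -1.62 ± 0.70 and was not called (adjusted p = 0.220).

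On day 3 Lmnb1 read 9.81, 10.31 and 9.77 with vehicle, 10.65, 9.46 and 10.17 with RTA-408, and 11.34 and 13.04 in unirradiated skin. Both irradiated groups again lay under the baseline range and under the unirradiated pair. The falls against baseline were -2.75 (adjusted p = 0.000891) and -2.61 (adjusted p = 0.00141), and -1.76 and -1.62 with the spike-in set as a block (adjusted p = 0.316 and 0.387). The difference from unirradiated skin, -2.23 ± 0.70, was not called (adjusted p = 0.108).

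On day 7 the arms met. Irradiated vehicle skin read 11.47, 11.65 and 10.91, RTA-408 skin 11.68, 11.32 and 11.06, and unirradiated skin 11.95 and 9.87. Lmnb1 was thus higher than on days 1 and 3 in each array of both irradiated arms. The lowest unirradiated array of the study was among the day 7 pair, and irradiated vehicle minus unirradiated skin was 0.44 ± 0.70 (adjusted p = 0.816). On day 14 the values were 12.58, 10.90 and 11.36 with vehicle, 10.83, 10.74 and 11.43 with RTA-408, and 13.17 and 12.52 unirradiated. The fall against baseline was called with RTA-408 (-1.71 ± 0.54, adjusted p = 0.0391, and -0.72 with the spike-in set as a block, adjusted p = 0.727). Leaving out any of 8 of the 9 compared arrays ended this call (highest adjusted p 0.148).

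In each arm, 2 rats had a baseline array of their own. All later arrays of such a rat share that 1 baseline value, for this and the other members. Those from day 3 on lie in other spike-in sets than the baseline. The share of all features with such counts was not computed. For these rats, Lmnb1 was below its own rat's baseline in 10 of 10 RTA-408 arrays, in 8 of 10 irradiated vehicle arrays and in 4 of 8 unirradiated arrays, with differences from -3.99 to -0.85, -3.98 to 0.31 and -1.25 to 0.86. Both irradiated vehicle exceptions came from the rat whose baseline of 11.34 was the lowest of the 6. The 2 RTA-408 rats had the highest baselines of the 6, 13.24 and 13.17.

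**Figure D2:**
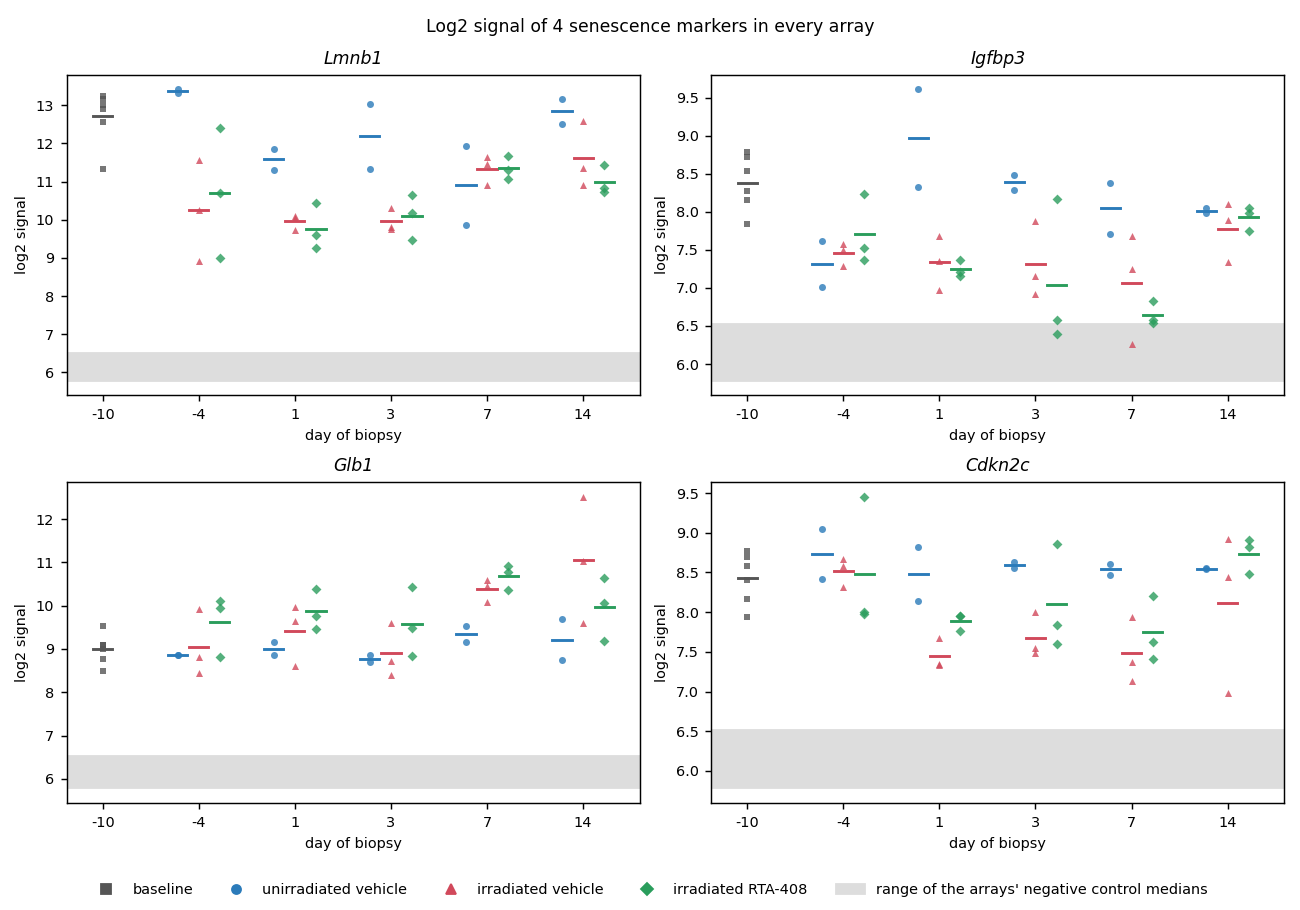
Log2 signal of Lmnb1, Igfbp3, Glb1 and Cdkn2c in every array by biopsy day, with the group mean as a bar and the range of the arrays' negative control medians as a grey band. The group means of Lmnb1 are lowest on days 1 and 3 in both irradiated arms, Igfbp3 reaches into the grey band in single irradiated arrays of days 3 and 7, and 1 irradiated vehicle array of day 14 carries the highest Glb1 value, 12.52.

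Markers of division were also lower on day -4. The mean of 14 proliferation genes was 10.07 and 10.46 in unirradiated skin of day -4 and 7.71, 9.50 and 8.17 in irradiated vehicle skin, in the same order of replicates as Lmnb1. On that day 8 of 14 proliferation genes fell against unirradiated skin and 0 rose, with a median difference of -1.72 beside 0.07 over all features. Of all features, 7.42% were called in either direction in that comparison. Mki67, the gene of the Ki-67 antigen of dividing cells, averaged 10.19 against 13.87 (-3.69, adjusted p = 0.00616), Ccna2, the S-phase cyclin A, 8.43 against 11.47 and Plk1, a mitotic kinase, 8.26 against 11.07. On day 1 the means of the 14 genes were 9.14, 8.76 and 8.61 with vehicle, 8.15, 8.82 and 8.87 with RTA-408 and 8.64 and 8.62 in unirradiated skin, against 8.92 to 10.06 at baseline. On that day 0 of 14 fell and 1 rose against unirradiated skin, where 2.10% of all features were called in either direction. The mean of 4 hair follicle markers was 13.29 to 16.62 at baseline, and from 5.16 to 5.92 on day 7 in both irradiated arms. In the unirradiated day 7 array with Lmnb1 at 9.87 that mean was 5.95, and in the other it was 10.11, against 13.35 to 16.54 in the other unirradiated arrays. Lmnb1 read 10.91 to 11.68 in the 6 irradiated arrays of that day. The part of dividing cells or of follicles in the Lmnb1 difference was not tested.

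**Figure D3:**
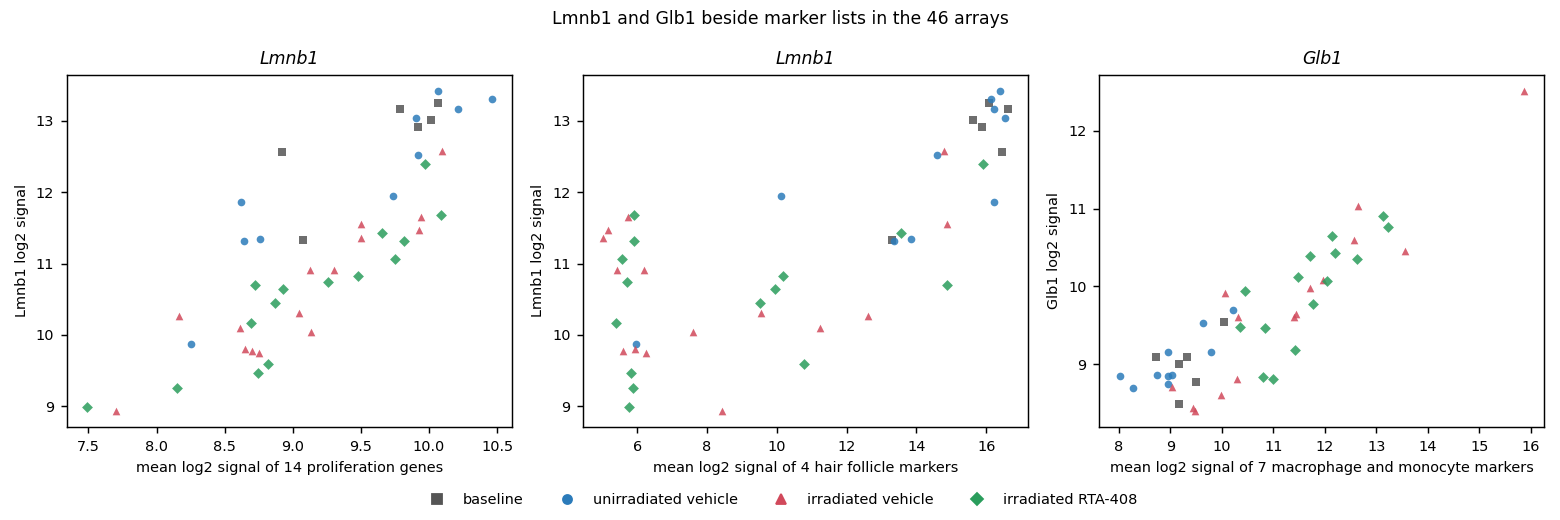
Log2 signal of Lmnb1 against the mean of 14 proliferation genes and of 4 hair follicle markers, and of Glb1 against the mean of 7 macrophage and monocyte markers, 1 point per array. Points of 1 rat on several days are not independent. The 6 irradiated arrays of day 7, with follicle means of 5.16 to 5.92, hold Lmnb1 values of 10.91 to 11.68, and Glb1 is highest where the macrophage mean is highest, 15.87.

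Of 9 other lamina and chromatin genes measured, 1 rose and 0 fell against unirradiated skin on day -4, and 0 passed on the 4 later days, with median differences of -0.43, -0.51, -0.23, 0.19 and -0.38. Over all features, 7.42%, 2.10%, 1.30%, 4.02% and 6.96% were called in either direction on the 5 days. The riser was Lmna, which encodes the A-type lamins, at 15.23 against 14.06 (1.17, adjusted p = 0.00748). Lmna was also higher than baseline in irradiated vehicle skin on days -4 and 1, by 1.41 and 0.97, and in unirradiated skin on day 1, by 1.16 (adjusted p = 0.0231). Hmgb2, a chromatin protein lost in senescent and resting cells, fell against baseline in irradiated vehicle skin on day 1, from 12.76 to 11.28 (adjusted p = 0.0301). With the spike-in set as a block, 1 of the 9 genes was called higher in that comparison and 0 lower. The Hmgb2 call was thus lost with the block. Lmnb2 was not analysed here.

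Igfbp3 (TC1400002217.rn.2) encodes the main carrier of insulin-like growth factors in blood, a p53 target that is secreted by senescent fibroblasts. It was lower, not higher, in irradiated skin. Its promoter window (RefSeq, GRCr8, chr14:86277945-86278194, minus strand) is shown as that of the second member lower after radiation. The capitals mark TATATA at bases 46 to 41 before the start, and none of the other motifs matched.

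Igfbp3: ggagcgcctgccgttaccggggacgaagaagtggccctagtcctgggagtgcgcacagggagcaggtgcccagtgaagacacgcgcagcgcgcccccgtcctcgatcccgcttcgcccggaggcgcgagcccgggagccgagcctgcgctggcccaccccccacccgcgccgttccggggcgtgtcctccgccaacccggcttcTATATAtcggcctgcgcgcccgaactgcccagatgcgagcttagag

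Baseline Igfbp3 read 8.27, 8.79, 7.84, 8.53, 8.71 and 8.15. On day 1 it read 7.35, 6.98 and 7.68 with vehicle, 7.36, 7.16 and 7.21 with RTA-408, and 8.33 and 9.61 in unirradiated skin. All 6 irradiated arrays lay below every baseline and unirradiated array. The fall against unirradiated skin was -1.63 ± 0.41 (adjusted p = 0.0308). It was -1.45 within the first spike-in set (adjusted p = 0.125), which compares the same arrays as leaving out irradiated vehicle replicate 2. The call was lost without irradiated vehicle replicate 1 or 2 (0.0694 and 0.117) and when only those 2 groups were fitted (0.0995). Without unirradiated replicate 2 the difference was -0.99. That array, at 9.61, is the one called day 3 in one label and placed by its title. Against baseline the fall was -1.04 ± 0.32 with vehicle (adjusted p = 0.0318, and 0.0581 with the spike-in set as a block) and -1.14 ± 0.32 with RTA-408 (adjusted p = 0.0159, and 0.0307).

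On day 3 Igfbp3 read 6.92, 7.16 and 7.88 with vehicle and 8.16, 6.39 and 6.57 with RTA-408. Each group overlapped baseline by a single array. The falls of -1.06 ± 0.32 (adjusted p = 0.0317) and -1.34 ± 0.32 (adjusted p = 0.00527) were called, and with the spike-in set as a block they were -1.11 and -1.39 and were not (adjusted p = 0.272 and 0.149). On day 7 it read 7.68, 6.26 and 7.25 with vehicle and 6.54, 6.57 and 6.83 with RTA-408, and neither overlapped baseline. The day 7 falls against baseline were -1.32 ± 0.32 (adjusted p = 0.00369, and 0.0888 with the block) and -1.73 ± 0.32 (adjusted p = 0.000165, and 0.0170 with the block). With the block the differences were -1.37 and -1.79. The RTA-408 call of day 7 held under every alternative and without any single array (highest adjusted p 0.0170). Against unirradiated skin, which read 8.49 and 8.28 on day 3 and 7.71 and 8.37 on day 7, the differences of -1.07 and -0.98 were not called (adjusted p = 0.216 and 0.188).

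By day 14 Igfbp3 read 7.89, 7.34 and 8.10 with vehicle, 7.99, 8.04 and 7.75 with RTA-408, and 8.05 and 7.98 unirradiated, and no comparison was called. The unirradiated pair of day -4, 7.01 and 7.61, overlapped the irradiated arrays of that day (7.29 to 8.24) and lay under the baseline range (-1.07 ± 0.37, adjusted p = 0.391). Igfbp3 lay under its own rat's baseline in 10 of 10 RTA-408, 9 of 10 irradiated vehicle and 6 of 8 unirradiated arrays. The highest baseline, 8.79, was of an RTA-408 rat and the lowest, 7.84, of an irradiated vehicle rat.

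Igfbp5 (TC0900002215.rn.2), another binding protein of the secretory phenotype with roles in muscle and fibrosis, stood high on all 46 arrays, between 13.24 and 17.05. Group means ran from 13.54 in unirradiated skin of day -4 to 16.23 with RTA-408 on day 7. The 2 unirradiated arrays of day -4, 13.24 and 13.84, were below all 6 irradiated ones, which read 14.18 to 15.35. That difference (1.40 ± 0.60) was not called (adjusted p = 0.157), but it was with array weights (0.0207) and when those 2 groups alone were fitted (0.0375). Other low values were 13.83 in baseline replicate 2 and 13.47 in irradiated vehicle replicate 3 of day 14. The mean of the muscle markers was 6.42 in the first of these and 15.42 in the second, and 16.65 and 16.28 in the unirradiated pair, against 19.06 in the baseline array with the highest Igfbp5, 17.05. Arrays low in muscle markers were not all low in Igfbp5: RTA-408 replicate 1 of day -4 had a muscle mean of 7.17 and Igfbp5 at 15.17, and unirradiated replicate 1 of day 1 had 9.28 and 15.13. The part of muscle in these values was not tested.

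Of 12 other IGF genes measured, none fell against unirradiated skin, and 1, 1, 0, 2 and 0 rose over the 5 days. Over all features, 7.42%, 2.10%, 1.30%, 4.02% and 6.96% were called in either direction on those days. Igfbp7, an abundant binding protein of vessels and matrix, rose on day -4 (18.16 against 17.32). Igf2r, the receptor that clears IGF2, rose on day 1 (11.12 against 10.10). Stc1, an inhibitor of the protease that cleaves IGF-binding proteins, and Igf1r, the signalling receptor, rose on day 7 (8.70 against 6.91, and 11.21 against 10.25). The list's median differences were 0.51, 0.34, 0.54, 0.18 and 0.14, beside 0.07, -0.03, 0.05, -0.06 and 0.01 over all features.

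Glb1 (TC0800001652.rn.2) encodes the lysosomal beta-galactosidase whose activity is the usual stain for senescent cells. Its promoter window (RefSeq, GRCr8, chr8:122963468-122963717, plus strand) is shown as that of the member that rose. The capitals mark CACGTG at bases 100 to 95 before the start, the E-box core that lysosomal genes share as a TFEB site, and the only one of the motifs found here.

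Glb1: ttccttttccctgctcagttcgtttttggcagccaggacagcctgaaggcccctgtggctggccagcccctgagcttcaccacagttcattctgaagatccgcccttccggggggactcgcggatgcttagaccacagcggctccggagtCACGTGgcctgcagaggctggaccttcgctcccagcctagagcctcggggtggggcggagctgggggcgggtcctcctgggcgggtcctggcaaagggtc

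Baseline Glb1 read 8.9997, 8.49, 9.09, 9.54, 8.77 and 9.10, and the 10 unirradiated arrays lay between 8.70 and 9.69. On day 7 it read 10.08, 10.60 and 10.45 with vehicle and 10.77, 10.35 and 10.91 with RTA-408, and 9.15 and 9.53 in unirradiated skin. All 6 irradiated arrays were above all baseline and unirradiated arrays. The rises against baseline were 1.38 ± 0.44 (adjusted p = 0.0298) and 1.68 ± 0.44 (adjusted p = 0.00619), and 0.61 and 0.91 with the spike-in set as a block (adjusted p = 0.687 and 0.448). Against unirradiated skin the day 7 difference of 1.03 ± 0.56 was not called (adjusted p = 0.343).

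On day 14 Glb1 read 9.60, 11.04 and 12.52 with vehicle, 10.07, 9.18 and 10.65 with RTA-408, and 8.75 and 9.69 unirradiated. The irradiated vehicle arrays spread over nearly 3 log2 units, and the lowest of them lay below the higher unirradiated one. The rise against unirradiated skin was 1.83 ± 0.56 (adjusted p = 0.0417), and 1.10 without irradiated vehicle replicate 3 (adjusted p = 0.400). It was also lost without replicate 2 (0.0758), without either unirradiated array (0.440 and 0.0519), with array weights (0.0690), with the replicate block (0.0786) and when those 2 groups alone were fitted (0.755). The rise against baseline was 2.06 ± 0.44 (adjusted p = 0.000938), 1.32 without replicate 3 (0.0661) and 1.29 with the spike-in set as a block (0.244). With RTA-408, 0.97 ± 0.44 was not called (adjusted p = 0.169).

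On day -4 irradiated arrays were split, at 8.44, 9.92 and 8.81 with vehicle and 10.12, 8.80 and 9.94 with RTA-408. The 3 high ones lay above all baseline arrays and the 3 low ones under the baseline mean. Glb1 was above its own rat's baseline in 10 of 10 RTA-408 arrays, by 0.31 to 1.86. It was so in 8 of 10 irradiated vehicle arrays and in 5 of 8 unirradiated arrays. The lowest baseline, 8.49, was of an RTA-408 rat and the highest, 9.54, of an irradiated vehicle rat.

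Macrophage and monocyte markers were high in the same arrays as Glb1. Their mean over 7 genes was 8.71 to 10.05 at baseline, 8.02 to 10.21 in unirradiated skin, 11.96 to 13.56 on day 7 in both irradiated arms, and 11.41, 12.65 and 15.87 on day 14 with vehicle, in the order of the Glb1 values. All 7 rose against unirradiated skin on day 14 and 5 on day 7, where 6.96% and 4.02% of all features were called. In the array with Glb1 at 12.52 the mean of 4 neutrophil markers was 13.05, against 5.26 to 6.52 at baseline. Only 1 of these 4 neutrophil markers lay above the negative-control median on every array. The part of macrophages, monocytes or neutrophils in the Glb1 rise was not tested.

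Of 15 other lysosomal genes, 0, 0, 0, 2 and 6 rose against unirradiated skin over the 5 days and none fell. Over all features, 7.42%, 2.10%, 1.30%, 4.02% and 6.96% were called in either direction on those days. The list's median differences were 0.65, 0.33, 0.34, 0.59 and 1.09, beside 0.07, -0.03, 0.05, -0.06 and 0.01 over all features. Man2b1, the lysosomal alpha-mannosidase, averaged 10.02 against 8.44 on day 14 (adjusted p = 0.0115), Ctsa, the protective protein that holds beta-galactosidase in its complex, 15.30 against 13.73 (adjusted p = 0.0319), and Hexa, a hexosaminidase subunit, 12.46 against 11.19 (adjusted p = 0.0211). Against baseline 12 of 15 rose in irradiated vehicle skin on day 14 and 0 of 15 in RTA-408 skin. Of all features, 15.4% and 10.2% were called in either direction in these comparisons. With the spike-in set as a block the counts were 1 and 0. On that day the list mean was 11.50, 12.13 and 13.68 in the vehicle arrays, from lowest to highest. It was 11.69 to 11.85 with RTA-408, 11.28 and 11.46 in unirradiated skin and 11.15 to 11.63 at baseline. The lowest vehicle array thus lay within the baseline range. How far single arrays carry these counts was not tested. In the direct comparison of both arms on that day 0 of 15 passed, with a median difference of -0.65 beside 0.01 over all features.

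Of the INK4 genes, only Cdkn2c fell, and Cdkn2a could not be measured. Cdkn2a (TC0500003113.rn.2), the gene of p16INK4a and of ARF, lay below the negative-control median of its array on 46 of 46 arrays, from 3.35 to 5.66, so no level of it was measured. The 2 calls made on it, against baseline in irradiated vehicle skin on day 7 (4.48, 5.66 and 4.39) and in RTA-408 skin on day 14 (5.07, 4.21 and 4.98), are differences within that range. The first was lost without replicate 2 (adjusted p = 0.233), and both were lost with the spike-in set as a block (0.115 and 0.187). The differences were 0.86 and 0.77 without the block and 0.97 and 0.88 with it.

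Cdkn2b (TC0500003108.rn.2), which encodes p15INK4b, a target of TGF-beta signalling, was measurable on all 46 arrays, from 7.30 to 10.32. Its group means ran from 7.68 with RTA-408 on day 1 to 9.10 with RTA-408 on day 14. On day 14 it read 8.49, 10.32 and 7.30 with vehicle, 9.44, 9.02 and 8.84 with RTA-408, and 8.57 and 7.68 unirradiated. The RTA-408 arrays lay above all 6 baseline arrays, which read 7.93 to 8.58, yet the difference of 0.76 ± 0.35 was not called (adjusted p = 0.170). The vehicle arrays held both the highest and the lowest value of the study. The difference of irradiated vehicle skin from baseline, 0.36 ± 0.35, was not called (adjusted p = 0.571), but without replicate 3 it was 1.06 (adjusted p = 0.0370) and with array weights 1.38 (0.00128). With array weights the difference from unirradiated skin was 1.61 (adjusted p = 0.0165), where it was 0.58 with equal weights (adjusted p = 0.571).

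Cdkn2c (TC0500003359.rn.2), which encodes p18INK4c, fell in irradiated vehicle skin. It read 7.67, 7.34 and 7.35 on day 1 and 7.93, 7.38 and 7.13 on day 7, against 7.94 to 8.77 at baseline. No array of either day reached the baseline range. The falls were -0.98 ± 0.32 (adjusted p = 0.0450) and -0.95 ± 0.32 (adjusted p = 0.0408), and -0.89 and -0.76 with the spike-in set as a block (adjusted p = 0.103 and 0.468). Leaving out any of 7 and of 6 of the 9 compared arrays ended these calls (highest adjusted p 0.154 and 0.234). Against unirradiated skin, which read 8.14 to 9.04 over all days, differences of -1.03, -0.92 and -1.06 on days 1, 3 and 7 had groups that did not overlap and were not called (adjusted p = 0.174, 0.307 and 0.147). With RTA-408 the differences from baseline on days 1 and 7 were -0.54 and -0.68 (adjusted p = 0.335 and 0.161).

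A list of cell cycle brakes and the RB pathway held 14 other measured genes, among them the p53 regulator Mdm2. Of these, 1, 3, 2, 3 and 2 rose and 1, 0, 0, 1 and 1 fell against unirradiated skin over the 5 days. Cdkn1a and Mdm2 are counted both here and among the p53 targets. Over all features, 7.42%, 2.10%, 1.30%, 4.02% and 6.96% were called in either direction on those days. Cdkn1a, the p53-induced inhibitor p21, averaged 15.05 against 12.44 on day 1 (2.62, adjusted p = 0.00430) and 14.13 against 11.47 on day 7 (2.66, adjusted p = 0.00188). On days -4, 3 and 14 its differences of 1.21, 1.27 and 0.14 were not called. Mdm2, which degrades p53 and is induced by it, rose on all 5 days, by 2.14, 2.47, 1.95, 1.58 and 1.15. Ccnd2, cyclin D2, fell on day 14 (13.16 against 14.69), and E2f3, a factor of the S-phase genes, on day -4 (6.22 against 8.02).

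Of 10 regulators of the INK4 locus, Ezh2, the Polycomb methyltransferase that silences it, fell on day -4 (9.57 against 10.82, adjusted p = 0.00881). Tgfb1 rose on days 7 and 14 (11.92 against 10.16 and 12.38 against 10.19), Myc and Id1 rose on day 7, and Ets2 fell on day 1. These are called genes picked from the list, and its counts by day are not given here. Over all features, 7.42%, 2.10%, 1.30%, 4.02% and 6.96% were called in either direction over the 5 days. Any link of these regulators to the INK4 values was not tested.

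Gdf15 (TC1600000292.rn.2), a stress cytokine of the TGF-beta family induced by p53 and by the integrated stress response, was above the negative-control median on 1 of 46 arrays, RTA-408 replicate 3 of day 3, at 6.14. No size of its change can be given. Baseline arrays read 3.61 to 4.56 and unirradiated arrays 3.62 to 4.59, and irradiated arrays read 4.18 to 5.89 with vehicle and 4.38 to 6.14 with RTA-408. The own-baseline counts rest on 2 rats an arm, each with 1 baseline array. The highest baseline, 4.56, was of an unirradiated rat and the lowest, 3.61, of an RTA-408 rat. Gdf15 was above its own rat's baseline in 10 of 10 arrays of each irradiated arm and in 3 of 8 unirradiated arrays. It was called higher than baseline with vehicle on day 1 (adjusted p = 0.0144) and with RTA-408 on days 1 and 3 (0.00273 and 0.000714, the second 0.0733 with the spike-in set as a block). The RTA-408 call of day 1 held under each of the 8 alternatives that kept the feature, which is among the dimmest left out in another, and without any single array (highest adjusted p 0.0400). The vehicle call was lost without replicate 1 or 2 (0.220 and 0.0540), within the first spike-in set (0.0715) and when only those groups were fitted (0.0617). Replicate 2 was that group's only array outside the first set, so leaving it out and the fit within the set compare the same arrays. Against unirradiated skin Gdf15 was called on no day.

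**Figure D4:**
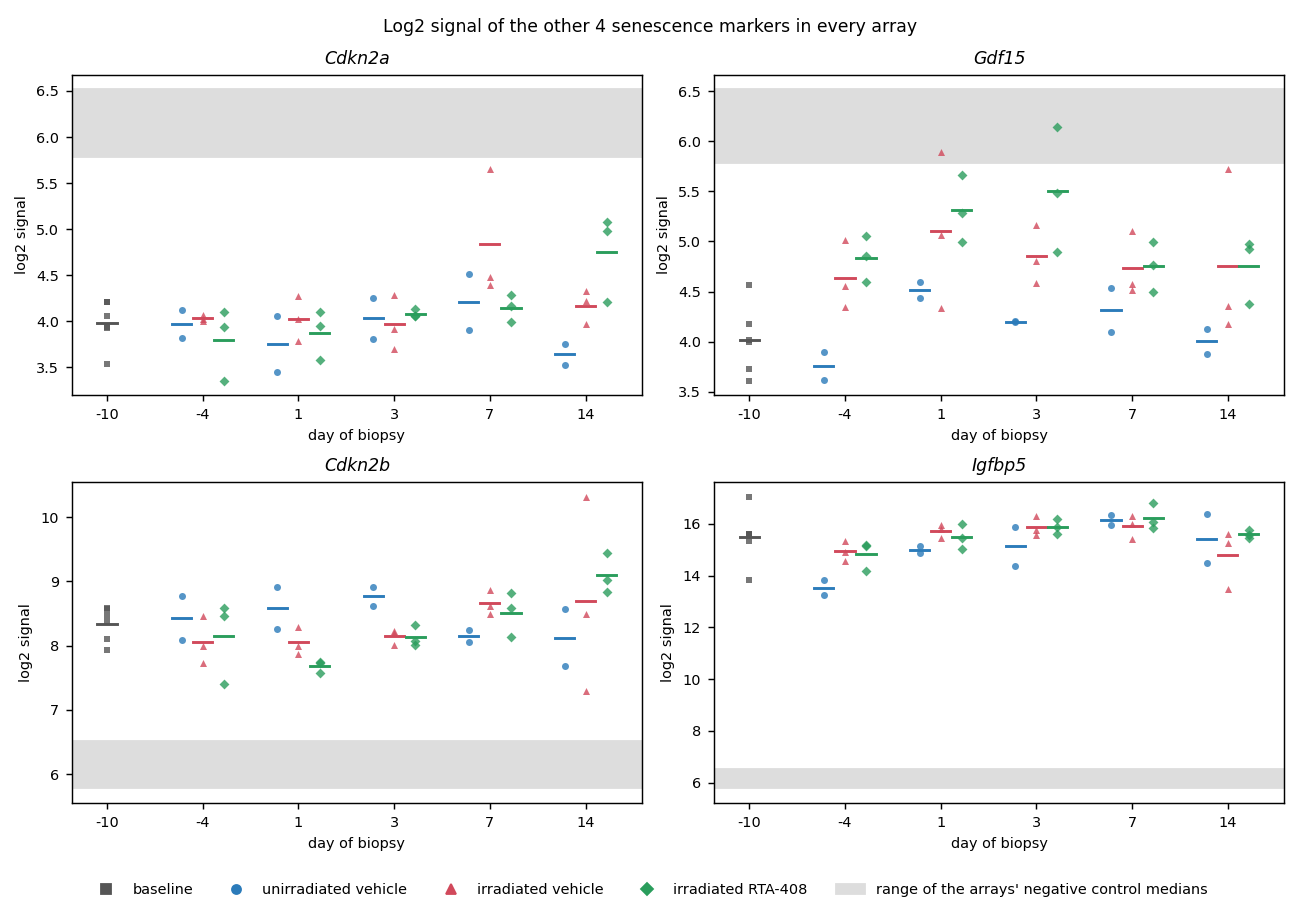
Log2 signal of Cdkn2a, Gdf15, Cdkn2b and Igfbp5 in every array by biopsy day, with group means as bars and the range of the arrays' negative control medians in grey. All Cdkn2a points and all Gdf15 points but 1 lie under their own array's negative control median.

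Of 15 measured p53 targets, 8, 7, 5, 6 and 2 rose against unirradiated skin over the 5 days and none fell, with median differences of 1.21, 1.13, 1.17, 0.78 and 0.48. Of 12 genes of the integrated stress response, 0, 0, 2, 3 and 0 rose and 2, 1, 1, 0 and 1 fell. Both lists stand beside 7.42%, 2.10%, 1.30%, 4.02% and 6.96% of all features called in either direction. Chac1, a glutathione-degrading enzyme, was at background level in irradiated vehicle skin on day -4, at 5.70 against 12.88, and also in unirradiated skin on day 7, at 5.98. Asns, asparagine synthetase, rose on days 3 and 7 (11.03 against 9.75 and 11.58 against 10.15).

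Of 22 senescence-associated secreted factors other than the members, 1, 0, 2, 6 and 10 rose against unirradiated skin over the 5 days and none fell. The shares of all features called in either direction were 7.42%, 2.10%, 1.30%, 4.02% and 6.96%. Only 8 of the 22 genes lay above the negative-control median on every array, and Csf2 did so on none. A gene at background level cannot show a fall, so the lack of falls says little for such genes. Against baseline 14 of the 22 rose on day 7 with vehicle and 15 with RTA-408, and 15 and 6 on day 14. The shares of all features called against baseline were 14.0% and 15.8% on day 7 and 15.4% and 10.2% on day 14. With the spike-in set as a block the counts were 4 and 7 on day 7 and 4 and 0 on day 14. The mean of the 22 genes was 6.83, 8.27 and 11.09 on day 14 with vehicle, against 6.57 and 6.64 in unirradiated skin, and replicate 3 was thus far above the other arrays. In the same vehicle arrays the neutrophil mean was 7.51, 9.32 and 13.05 and the macrophage mean 11.41, 12.65 and 15.87. On day 7 the neutrophil mean was 10.37, 11.49 and 11.37 with vehicle and 7.44 and 6.37 in unirradiated skin. The part of leukocytes in these counts was not tested. Mmp3, stromelysin, averaged 14.23 against 7.21 on day 7 (adjusted p = 0.00115), and Timp1, the metalloprotease inhibitor, 12.60 against 8.64 on day 14 (adjusted p = 0.00793). Ccl20, a chemokine of dendritic cells, rose on day 3 (11.50 against 7.89, adjusted p = 0.00411).

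The drug comparison asked whether RTA-408 altered these markers in irradiated skin, with 3 arrays against 3 on each day. No member was called by limma on any of the 5 days, where 0.0474%, 0.0733%, 0.00431%, 0% and 0% of all features were. At an unadjusted p under 0.05 there were 0, 0, 0, 1 and 2 members: Cdkn2a on days 7 and 14, below background, and Glb1 on day 14. The Glb1 difference was -1.09 ± 0.50, with a 95% interval from -2.12 to -0.06 (adjusted p = 0.370), and all 3 RTA-408 values lay below the higher 2 vehicle values while 2 of them lay above the lowest. Without irradiated vehicle replicate 1 it was -1.81 and was called (adjusted p = 0.0248), and without replicate 3 it was -0.36 (adjusted p = 0.999).

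For Lmnb1 the differences were 0.45, -0.19, 0.13, 0.01 and -0.61 on days -4, 1, 3, 7 and 14, each with an SE of 0.63. The outermost bounds of the 95% intervals were -1.89 and 1.72. Igfbp3 differed by 0.26, -0.09, -0.28, -0.41 and 0.15 (SE 0.37), and Cdkn2c by -0.05, 0.44, 0.42, 0.27 and 0.62 (SE 0.37). Cdkn2b and Igfbp5 differed by at most 0.40 and 0.82, both on day 14 and both higher with RTA-408, with intervals from -0.41 to 1.21 and from -0.26 to 1.91. Without irradiated vehicle replicate 3 they were -0.30 and 0.17, and without replicate 2 of that group they were 1.21 and 1.07. Every context list had 0 genes called in the drug comparison on all 5 days.

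**Figure D5:**
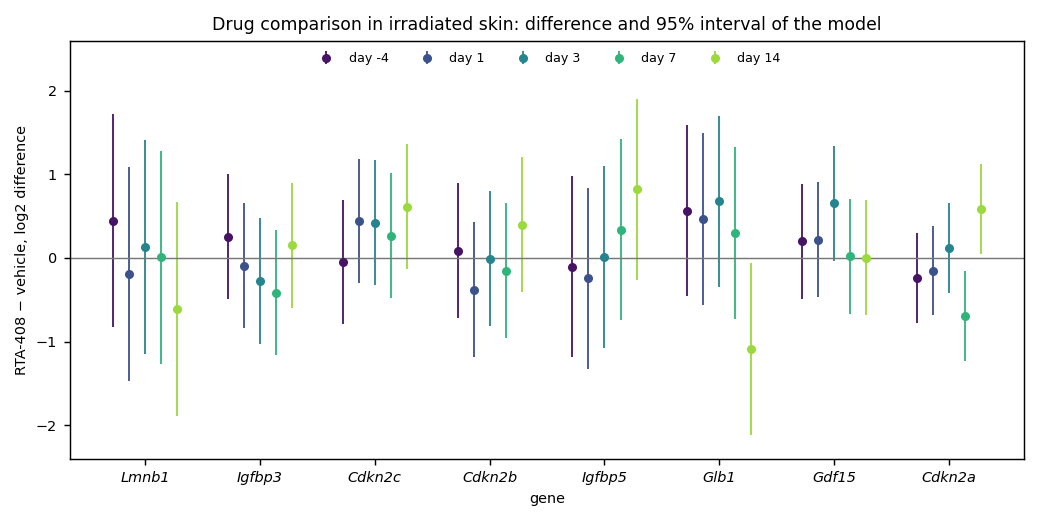
Difference of mean log2 signal between RTA-408 and vehicle in irradiated skin for the 8 genes on 5 days (colours), with the 95% interval of the model. All intervals but 3 include 0, those of Cdkn2a on days 7 and 14 and of Glb1 on day 14.

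Tests over days found Glb1 alone to change within an arm. In irradiated vehicle skin its moderated F over the 5 days was 6.68 (adjusted p = 0.00749, where 14.2% of all features were called), and 2.64 without replicate 3 (adjusted p = 0.286). No other member was called there, none in RTA-408 skin (6.26% of features) and none in unirradiated skin (1.13%). Nor was any call made on the drug difference (0.0129%) or the radiation difference (2.16%) between days. For Lmnb1, adjusted p was 0.116 in irradiated vehicle skin, 0.343 with RTA-408 and 0.162 for the radiation difference.

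Ordered by group means, the 5 lowest of 16 for Lmnb1 were irradiated skin of days 1, 3 and -4 (9.77 to 10.25), and the 3 highest were unirradiated skin of day -4 (13.37) and day 14 (12.85) and baseline (12.71). For Glb1 the 3 highest were irradiated vehicle skin of day 14 (11.05), RTA-408 skin of day 7 (10.68) and vehicle skin of day 7 (10.38), and the lowest was unirradiated skin of day 3 (8.78). For Igfbp3 the lowest were RTA-408 skin of days 7 (6.65) and 3 (7.04), and the highest unirradiated skin of day 1 (8.97). None of the 15 steps between neighbours in these orders exceeded 2 SE of a difference of 3 against 3 arrays (SE 0.63, 0.50 and 0.37). Neighbours in each order therefore do not differ beyond their spread.

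Genes most like each member were sought by Pearson correlation over the 16 group means among 9312 named genes above background, as a description over points that share rats and arrays. For Glb1 they were C3ar1 (r = 0.979), Gpr34 (0.975) and Rasgrp4 (0.974), and for Lmnb1 they were E4f1 (0.972), H2ax (0.968) and Slc25a5 (0.966). Igfbp5 went with Gpd2 (0.913), Popdc3 (0.898) and Pdlim3 (0.891), and Cdkn2c with Stk24 (0.900), Rsbn1 (0.899) and Cdr2 (0.898). Cdkn2b went with Ehf (0.863), Ckmt1 (0.847) and Car12 (0.840), and Igfbp3 with Mical1 (0.846), Fat2 (0.835) and St8sia1 (0.822). Gdf15 and Cdkn2a, at background level, went with Alox5 (0.952), Irak3 (0.935) and Anxa11 (0.931), and with Llph (0.833), Sh3gl2 (0.795) and Rab10 (0.780).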

How the data were processed

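Skin RNA (100 ng, mean RNA integrity number 7.15, per the labels) was hybridised to 46 arrays. The authors deposited 1 log2 signal per feature and array, and the normalization behind it is not stated in the labels. These log2 values reach 19.66 to 19.93 per array, above the 16 of a plain scanner scale, so differences are given in log2 units and not as folds. They were used without further scaling. Of 24834 features, 1646 controls were left out. The annotation supplied gave 15049 features a symbol and 8139 none. Groups were arm by day plus baseline, 16 in all. Replicate 2 of unirradiated skin on day 1 is called day 3 in one label and was placed by its title. A model with 1 mean per group was fitted with limma 3.58.1 (R 4.3.3, lmFit and eBayes, 30 residual degrees of freedom). Each comparison and day was adjusted by Benjamini-Hochberg, with a threshold of 0.05, and changes over days used the moderated F-test. The pipeline was tested on simulated data.

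The members and the context and marker lists were chosen with earlier results of these data known. All 8 members are named in each comparison. Of each context list, genes could be named if called and among the 4 largest differences, and not all of these are named. Cdkn1a, Mki67 and Lmna could be named throughout. Keratinocyte, fibroblast, macrophage, neutrophil, muscle and follicle markers are given where they bear on a member.

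Spike-in sets were read from control signals: dap was 10.85 to 11.37 in the third set against 9.77 to 10.52 in the others, and an ERCC control parted the first (9.38 to 9.99) from the second (10.27 to 11.08). Same-numbered replicates in the drug and radiation comparisons are different rats, so the reported fit did not pair them. Deviations of same-numbered arrays correlated from -0.378 to 0.254. By comparison and day, 0 to 3 of 3 arrays correlated best with their own number, 3 in the drug comparison of day 7. Promoters came from the RefSeq table of GRCr8, in which all 8 members were found. Alternatives were quantile normalization, dropping the dimmest 5797 of the features, array quality weights, a random block per rat (correlation 0.00672), the replicate number or the spike-in set as a block, fits of only the groups compared or within a set, and leaving out each array. Leaving out 2 arrays that stand apart (RTA-408 replicate 1 of day -4, low in muscle markers, and irradiated vehicle replicate 3 of day 14, rich in leukocyte markers) was added after seeing the data. So were the list counts with the spike-in set as a block. Array number limits the precision of all values.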

Additional observations from a re-analysis of the deposited data

Results flagged for a closer look

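Lmnb1 in baseline replicate 4 read 11.34, below the other 5 baseline arrays, which read 12.57 to 13.24. Its gap to the nearest array was 0.645 of the group's range, above Dixon's critical value for 6 arrays. Of the 8 members tested in this group, the other 7 were within the limit, and chance flags about 1 in 20 groups. The same array had the highest Igfbp5 (17.05), the highest mean of muscle markers at baseline (19.06), the lowest mean of follicle markers at baseline (13.29) and the highest mean of macrophage markers at baseline (10.05). Without it, the fall of Lmnb1 in unirradiated skin of day 7 against baseline was -2.07 and was called (adjusted p = 0.0401), where it was -1.80 with it (adjusted p = 0.115).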

How the results depend on the processing

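No called difference changed sign under any alternative. Of the 27 calls on members, 4 held under every alternative tried and without any single array: Lmnb1 on day 1 in both irradiated arms, Gdf15 on day 1 and Igfbp3 on day 7 with RTA-408, all against baseline. The Gdf15 feature is absent from the fit without the dimmest features. The rat as a random block changed no call. Counts of members called moved by more than 1.5 times as follows. Irradiated against unirradiated skin had 2 on day -4 with array weights and when only those groups were fitted (1 in the fit reported). It had 0 on day 1 within the first spike-in set, and 0 on day 14 with the replicate block and when only those groups were fitted. Without the 2 arrays that stand apart it had 2, 1 and 0 on days 1, 7 and 14. Irradiated vehicle skin against baseline had 2 on day -4 with quantile normalization, without the dimmest features, when only those groups were fitted and without the 2 arrays, and 0 within the first set. It had 2 on day 1 with the spike-in set as a block and 1 within the first set, 1 on day 3 with the replicate block, 4 on day 3 without the 2 arrays, 3 on day 14 with array weights and 0 on day 14 when only those groups were fitted. With the spike-in set as a block it had 0 on days 3, 7 and 14. RTA-408 skin against baseline had 0 on days -4, 3 and 14 and 1 on day 7 with the spike-in set as a block. It had 0 on day -4 within the first set and when only those groups were fitted. On day 7 it had 4 with array weights, when only those groups were fitted and without the 2 arrays, and on day 14 it had 1 without the dimmest features and with the replicate block. Unirradiated skin against baseline had 1 on days -4 and 7 with array weights. Changes over days were called for 2 members in irradiated vehicle skin with quantile normalization, 4 with array weights and 3 without the 2 arrays. They were called for 3 and 1 in RTA-408 skin with array weights and without the 2 arrays, for 1 in unirradiated skin and for 2 in the radiation difference with array weights. The cause of these changes was not tested.

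Leaving out 1 array at a time gave 0 to 1 members in the drug comparison on day 14 and 0 on its other days. Irradiated against unirradiated skin gave 0 to 1 on days -4, 1, 3 and 14 and 0 on day 7. Irradiated vehicle skin against baseline gave 0 to 2, 1 to 4, 1 to 2, 0 to 5 and 1 to 2 over the 5 days, and RTA-408 skin 0 to 1, 2 to 3, 2 to 3, 2 to 3 and 0 to 2. Unirradiated skin against baseline gave 0 to 1 on days -4 and 7 and 0 otherwise. Changes over days gave 0 to 1 in irradiated vehicle skin and 0 in the others. With the replicate block, calls against baseline were lost for Igfbp3 on days 1 and 3 with vehicle (adjusted p = 0.107 and 0.109), for Igfbp3 on day 1 with RTA-408 (0.0700) and for Cdkn2a (0.0547 with vehicle on day 7 and 0.111 with RTA-408 on day 14). Baseline replicates whose numbers no other group has do not enter the differences under this block, so fewer baseline arrays were compared. These losses therefore decide nothing about a pairing of arrays. Cdkn2a and Gdf15 lay below background, which limits their values.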
